A study of Mus musculus with 7 samples.

Results

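A set of 2164 glucocorticoid receptor sites that were present in every library of the experiment, with and without ligand, is described here. They were found among 33916 sites on chromosomes 1 to 19 (6.38%, exact 95% binomial interval 6.12 to 6.65%, counting error only), and among 35316 sites in all. A site is a run of peak summits of any library with at most 200 bp between neighbours. The members were chosen by the presence of at least 1 summit of each of the 7 lists. Presence in a list is therefore what defines them and is no finding. The glucocorticoid receptor, NR3C1, is a transcription factor that is held in the cytoplasm by chaperones until a glucocorticoid binds it. The liganded receptor moves to the nucleus and binds DNA, directly at palindromic response elements or by way of other factors, mostly where chromatin is already accessible. Occupancy in cells without added hormone is less well defined, because serum carries some steroid and an antibody can also recover DNA in a way that does not depend on the receptor.

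The 7 libraries came from mouse embryonic fibroblasts, made from embryos of day 14 to 17 post coitum and used at passage 4 to 11. Receptor-bound DNA was recovered with an in-house antibody by chromatin immunoprecipitation (ChIP) and sequenced. Klf15-/- fibroblasts, which lack a Krüppel-like zinc-finger factor whose gene is induced by glucocorticoids, gave 2 libraries after 1 h with the synthetic glucocorticoid dexamethasone (dex) and 2 with ethanol vehicle. Wild-type (WT) fibroblasts gave 2 dex libraries and 1 vehicle library, and that library came from pooled material because little was available. The labels do not tell whether libraries of a group are separate cultures or separate embryo lines. Their spread may be technical. The genotype labels were not checked here.

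The lists were of unequal length, with 19999 and 20169 summits for Klf15-/- dex, 15628 and 16927 for WT dex, 7325 and 8088 for Klf15-/- vehicle and 10034 for WT vehicle. Read depth is unknown. The first Klf15-/- vehicle list stood apart: 414 of its summits lay under 200 bp from the one before, against 0 to 4 in the others, and it set most of the limit on membership. Of 2058 sites held by 6 lists, 1388 (67.4%) lacked a summit of that list alone, 305 lacked Klf15-/- vehicle 2, 175 lacked WT vehicle, and 31 to 77 lacked a given dex list. Without that list the rule gave 3538 sites, so results that rest on it are given both ways. Coordinates are mm9 and counted from 1. Gene names and sequence at the sites are not analysed here.

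Membership took up a small part of the dex lists and a larger part of the vehicle lists. Members made up 11.15% and 11.03% of the autosomal sites of the Klf15-/- dex lists and 14.13% and 13.05% of those of the WT dex lists. They made up 37.2% and 28.2% of the Klf15-/- vehicle lists and 22.1% of the WT vehicle list. The number of members is the same in each list, so these shares differ with the number of autosomal sites a list holds. That number was 5813 and 7663 for Klf15-/- vehicle and 9798 for WT vehicle. The first of these lists had several summits in 450 members, so its summits made fewer sites.

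Members were mostly high in the lists, but reached down to the bottom. The peak score was turned into a percentile of its own list, from 0 to 100, so that no score of one library was set against that of another. In the Klf15-/- dex lists the median member stood at percentile 88.2 and 88.1, and in the WT dex lists at 83.6 and 85.1. In the Klf15-/- vehicle lists it stood at 58.7 and 80.1, and in the WT vehicle list at 83.5. The dex medians averaged 86.2 ± 2.26 (SD, n = 4 lists) and the vehicle medians 74.1 ± 13.5 (SD, n = 3 lists). The lowest dex median, 83.59 in WT dex 1, was next to the highest vehicle median, 83.53 in WT vehicle, and the low vehicle value belonged to the first Klf15-/- list. Percentiles of a whole list depend on how many weaker summits were called below the member, so these levels show no change in occupancy.

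Score and membership went together in the dex lists. Of the 8842 autosomal sites held by all 4 dex lists, members made up 7.05% (exact 95% interval 5.87 to 8.39%) where the lowest dex percentile was under 20. They made up 19.8% (17.98 to 21.74%) between percentiles 40 and 60, and 51.8% (49.5 to 54.2%) from 80 upward. In the top 10% of the single dex lists 47.4% to 47.5% of sites were members. The corresponding shares in the vehicle lists were 54.3% and 86.3% for Klf15-/- and 79.6% for WT. In the lowest 20% of the lists, members were 0.36% to 1.99% of the sites with dex, and 27.7%, 6.65% and 3.11% in Klf15-/- vehicle 1, Klf15-/- vehicle 2 and WT vehicle.

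The edge of the rule was soft in position. The members nearest the linkage limit had inner gaps of 200, 199 and 199 bp, at chr10:24497963-24498409, chr15:35462952-35463253 and chr3:115817017-115817303. Their median percentiles were 74.35, 96.97 and 71.52 in the dex lists and 38.7, 95.9 and 64.6 in the vehicle lists. The nearest pairs of sites that would have made a member at a wider limit were 201, 203 and 204 bp apart, at chr4:62390204-62390585, chr17:16191553-16192091 and chr6:122639646-122639989. Their median percentiles were 88.5, 24.2 and 91.1 with dex and 52.9, 50.1 and 51.1 with vehicle. In all, 160 members had an inner gap over 150 bp, and 36 pairs of sites missed membership by a gap over 200 and up to 250 bp.

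To describe the order of the members free of list length, they were ranked again among themselves in each list, from 0 for the weakest to 100 for the strongest. These ranks sum to the same total in every list, so a gain of some members is a loss of others. Replicate dex lists put the members in nearly the same order, with Spearman's rho of 0.84 for Klf15-/- and 0.87 for WT (n = 2164 sites, each rho across sites of 2 libraries). Dex lists of different genotype had rho of 0.68 in all 4 pairs. Dex and vehicle lists of the same genotype had rho of 0.27 to 0.64, the lowest with Klf15-/- vehicle 1, and 0.48 to 0.64 without it. For the vehicle lists rho was 0.52 between the Klf15-/- replicates, and 0.46 and 0.58 between Klf15-/- and WT. Sites of a library share its depth and are no replicates, so these values are descriptions.

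With dexamethasone the members stood in a different order than with vehicle. Of the 2164 members, 236 (10.9%) ranked higher in each of the 4 dex lists than in any of the 3 vehicle lists. Another 320 (14.8%) ranked lower in each dex list than in any vehicle list. Over all 2195 sites held by the 7 lists, which add 29 sites on X and 1 each on Y and M, the same shares were 11.0% and 15.1%, and nearly all of these sites are the members. The rest, 1608 members, had overlapping ranks. By at least 20 rank points the numbers were 83 higher and 70 lower, and by at least 50 points 16 and 0. On the percentiles of the whole lists, which favour the longer dex lists, 427 members were higher and 177 lower. The balance of higher to lower calls thus turned round with the scale. Below, members that gained or lost are those called by ranks among the members. Without Klf15-/- vehicle 1, 510 of 3538 sites were higher and 590 lower by rank, and without Klf15-/- vehicle 2 the counts were 384 and 464 of 2456. Fewer lists then have to stay apart. The smallest p of an exact permutation test (two-sided) would be 0.0571, and the scores come from the lists that chose the sites, so no test was made.

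**Figure D1:**
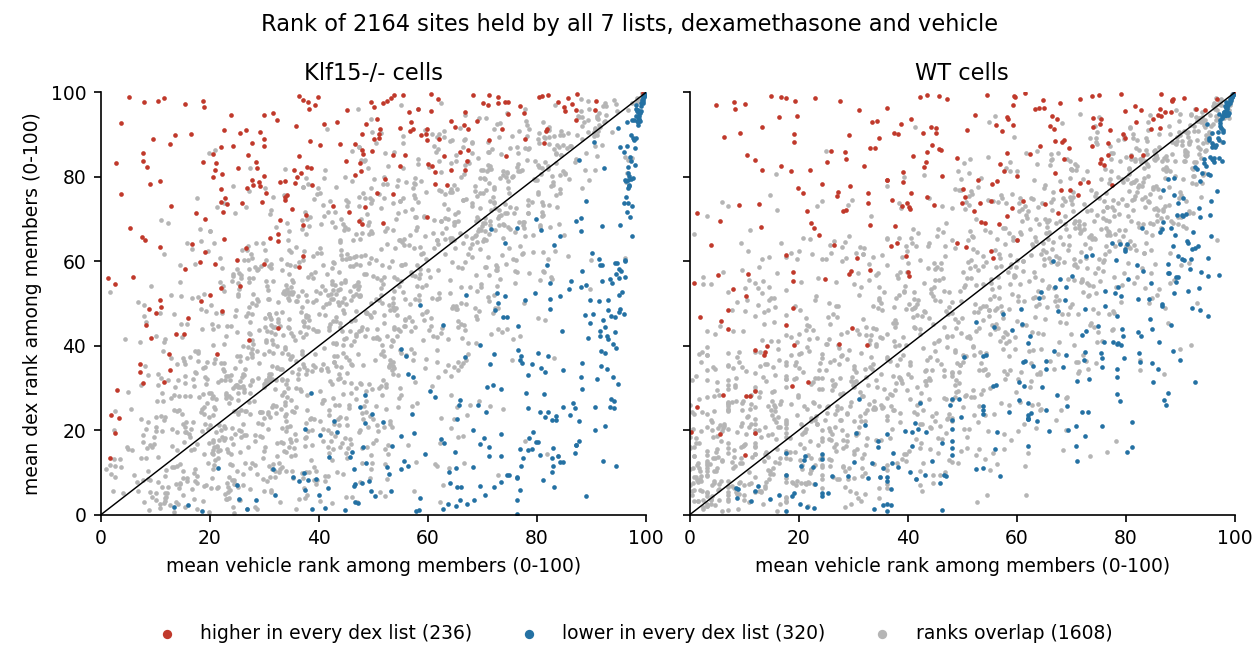
Each point is 1 of the 2164 members, placed by its mean vehicle rank (x axis) and mean dex rank (y axis) among the members, in Klf15-/- cells (left) and WT cells (right). The 236 members higher in every dex list lie above the diagonal in both panels and the 320 lower in every dex list lie below it.

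Within Klf15-/- cells, 566 members (26.2%) ranked higher in both dex lists than in both vehicle lists, and 575 (26.6%) ranked lower. Among all 2774 autosomal sites held by the 4 Klf15-/- lists, most of which are the members themselves, these shares were 26.4% and 26.7%. On whole-list percentiles 1196 members were higher and 233 lower. With the single list Klf15-/- vehicle 2 as the vehicle side, 1347 of 3538 sites were higher and 1524 lower, and with Klf15-/- vehicle 1 alone 1078 and 997 of 2456. Within WT cells, 798 members (36.9%) ranked higher in both dex lists than in the single vehicle list and 946 (43.7%) lower, beside 35.9% and 43.2% of 6384 sites held by the 3 WT lists. With 2 lists against 1, more sites fail to overlap than with 2 against 2, so the genotypes' counts cannot be set against each other. For 2 libraries a side no exact two-sided permutation p can be below 0.333.

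The genotypes share no library, and more members moved the same way in both than opposite ways. Members that gained in both genotypes numbered 373 and members that lost in both 432. Opposite moves were seen in 100 members (higher in Klf15-/-, lower in WT) and in 72 (lower in Klf15-/-, higher in WT). Taken singly, 26.2% of members were higher and 26.6% lower in Klf15-/- cells, and 36.9% and 43.7% in WT cells. Counts expected from these shares were not worked out, and no such counts were made over other sites. Whether the agreement is particular to the members was therefore not tested. Across all members the Klf15-/- change and the WT change had a Spearman's rho of 0.54. The direction chosen in one genotype was then read in the libraries of the other. The 208 members that gained at least 20 rank points in every Klf15-/- comparison had a median change of 29.0 points in WT cells, with 27.0 and 30.4 for the 2 WT dex lists, and 179 of them (86.1%) were higher with dex. Over all members the WT median was -1.44, with 46.0% higher. The 225 members that lost at least 20 points in Klf15-/- had a median of -25.4 in WT, and 18 (8.0%) were higher. Without Klf15-/- vehicle 1 these medians were 17.98 and -15.8, and without Klf15-/- vehicle 2 they were 12.1 and -15.4. The sites ranked and the lists used in the choice both differ in those runs, and the cause was not tested. In the reverse direction, 289 members chosen as gaining in WT had a median of 29.0 in Klf15-/- cells and 247 (85.5%) were higher. For the 278 chosen as losing in WT the Klf15-/- median was -25.4 and 48 (17.3%) were higher. Read against Klf15-/- vehicle 2 alone, these 2 medians were 27.4 and -27.3.

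The members with the largest gains stood at the top of the dex lists and in the lower or middle part of the vehicle lists. The first was chr13:102489464-102489537. It stood at percentile 99.3 and 99.7 in Klf15-/- dex, 99.2 and 99.0 in WT dex, 12.8 and 32.8 in Klf15-/- vehicle and 28.0 in WT vehicle. All 4 dex lists were above all 3 vehicle lists by 88.2 rank points or more. The second, chr10:88927897-88927957, stood at percentile 99.5 and 99.5 in Klf15-/- dex, 99.7 and 99.8 in WT dex, 7.56 and 47.3 in Klf15-/- vehicle and 56.4 in WT vehicle. The third, chr5:107648525-107648687, stood at 99.7 and 99.7 in Klf15-/- dex, 99.6 and 99.7 in WT dex, 7.56 and 49.8 in Klf15-/- vehicle and 57.7 in WT vehicle. In the second and the third, the WT vehicle value was in the middle of its list, while Klf15-/- vehicle 1 was near the bottom of its own.

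The fourth, chr9:49624396-49624512, stood at percentile 99.8 and 99.8 in Klf15-/- dex, 99.4 and 99.4 in WT dex, 14.97 and 5.03 in Klf15-/- vehicle and 60.3 in WT vehicle. The fifth, chr10:120073284-120073530, stood at 99.5 and 99.4 in Klf15-/- dex, 99.3 and 99.5 in WT dex, 36.6 and 34.1 in Klf15-/- vehicle and 68.4 in WT vehicle. The remaining 5 of the first 10 were chr2:24295704-24295834, chr3:107625302-107625626, chr13:41078260-41078354, chr6:145693884-145693991 and chr8:13620602-13620814. Over all 10, percentiles ran from 94.2 to 99.9 in the dex lists and from 2.34 to 74.7 in the vehicle lists, with no overlap. None of these sites was in the top 20% of a vehicle list.

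The members with the largest losses stood lower in the dex lists and mostly near the top of the vehicle lists. The first was chr6:60637239-60637253. It stood at percentile 60.7 and 64.8 in Klf15-/- dex, 76.7 and 60.6 in WT dex, 98.30 and 97.95 in Klf15-/- vehicle and 96.9 in WT vehicle. The second was chr18:3004883-3004909, with 81.5 and 37.4 in Klf15-/- dex, 28.7 and 71.7 in WT dex, 95.4 and 94.8 in Klf15-/- vehicle and 95.4 in WT vehicle. Its replicate dex lists were far apart in both genotypes, and still all below the vehicle lists. The third, chr13:44964989-44965009, stood at 73.4 and 74.1 in Klf15-/- dex, 70.9 and 82.0 in WT dex, 97.77 and 96.96 in Klf15-/- vehicle and 97.6 in WT vehicle.

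The next were chr6:50997486-50997505, chr2:22600396-22600416, chr9:3258864-3258882, chr17:39980153-39980512, chr1:197105436-197105467, chr10:7229491-7230217 and chr1:44258123-44258142. Over the 10 sites, percentiles ran from 28.7 to 84.9 in the dex lists and from 74.7 to 98.8 in the vehicle lists. These 2 ranges overlap between sites. Within chr10:7229491-7230217 the percentiles also overlapped, at 74.92 in WT dex 1 and 74.70 in Klf15-/- vehicle 1, while its ranks among the members did not. The rank gaps, 34.5 to 49.2 points, were smaller than the 56.5 to 88.2 points of the largest gains.

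**Figure D2:**
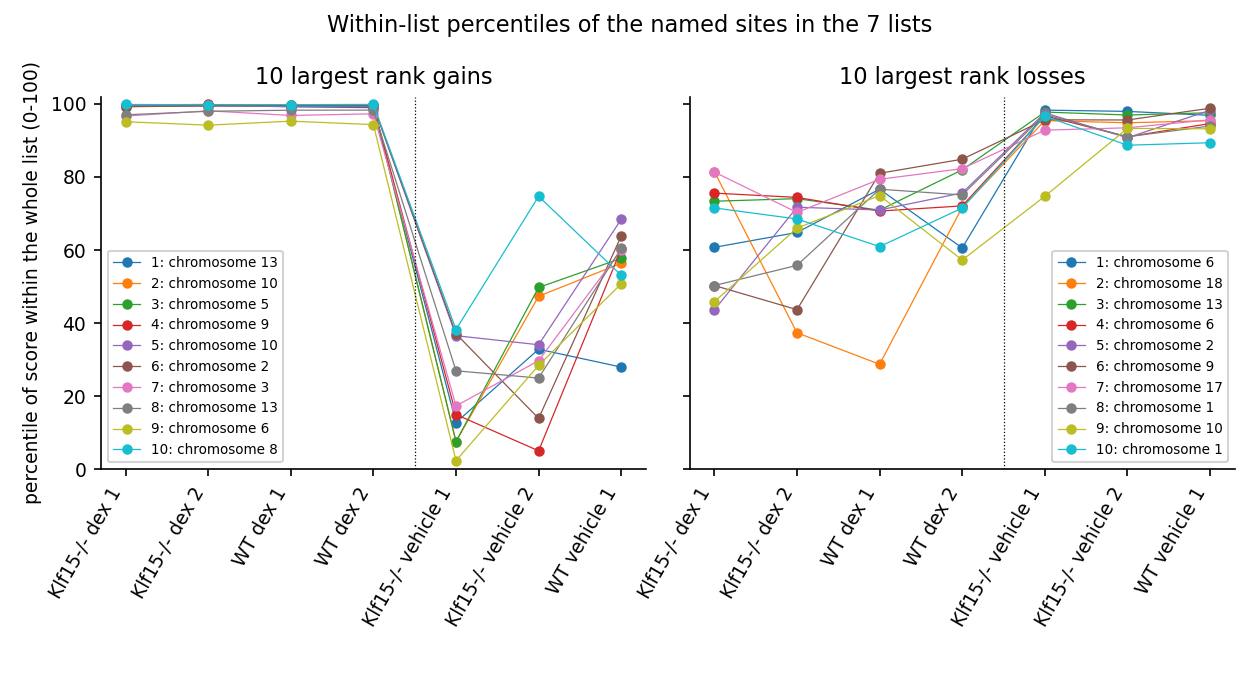
Percentile of the score within its own whole list (y axis, 0 to 100) for the 10 members with the largest rank gain (left) and the 10 with the largest rank loss (right), 1 line per site, in the 4 dex lists and then the 3 vehicle lists. The gaining sites lie between 94.2 and 99.9 in the dex lists, and the losing sites between 28.7 and 84.9.

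Sites that gained and sites that lost differed in shape, a property that went with rank. Shape is given as the spread, the distance between the outermost of the 7 highest summits, 1 per list, within a site. The linkage limit bounds it only between neighbours. Members with a spread of up to 25 bp had a median vehicle rank of 94.2, and those over 200 bp 38.3. With dex these values were 63.4 and 40.55. The classes were made from the same ranks, so their difference in shape is a description and no separate support. The median spread was 142 bp for the members that gained (lowest 37 bp), 80.5 bp for those that lost (lowest 0 bp) and 135 bp over all members. The difference was smaller without Klf15-/- vehicle 1: among the 3538 sites then found, the medians were 110 bp for sites that gained, 90 bp for sites that lost and 106 bp over all of them. Of the 10 largest gains, the spread was 60 to 324 bp. Of the 10 largest losses, it was 14 to 681 bp with a median of 20 bp.

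A small class of members had all 7 summits within 25 bp, a limit chosen after the values were seen. It held 120 members (5.55%). None of the 236 members that gained were in this class, against 111 of the 320 that lost (34.7%) and 9 of the 1608 others (0.56%). Of the class, 92.5% lost rank in every dex list. Among the 1056 members with a spread over 100 and up to 200 bp, 120 gained (11.4%) and 88 lost (8.33%). The median vehicle rank was 94.15 in the class and 44.67 in those 1056 members. Losses at like vehicle rank were not compared. The class ranked high throughout: its median percentile was 90.1 and 89.9 in Klf15-/- dex, 92.1 and 92.3 in WT dex, 98.8 and 98.3 in Klf15-/- vehicle and 98.3 in WT vehicle. Ranked among the members, its median was 57.3 and 56.2 in Klf15-/- dex and 72.9 and 71.4 in WT dex, against 96.4 and 94.7 in Klf15-/- vehicle and 92.9 in WT vehicle. Without Klf15-/- vehicle 1, 137 of the 3538 sites were within 25 bp, of which 1 gained and 118 lost.

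**Figure D3:**
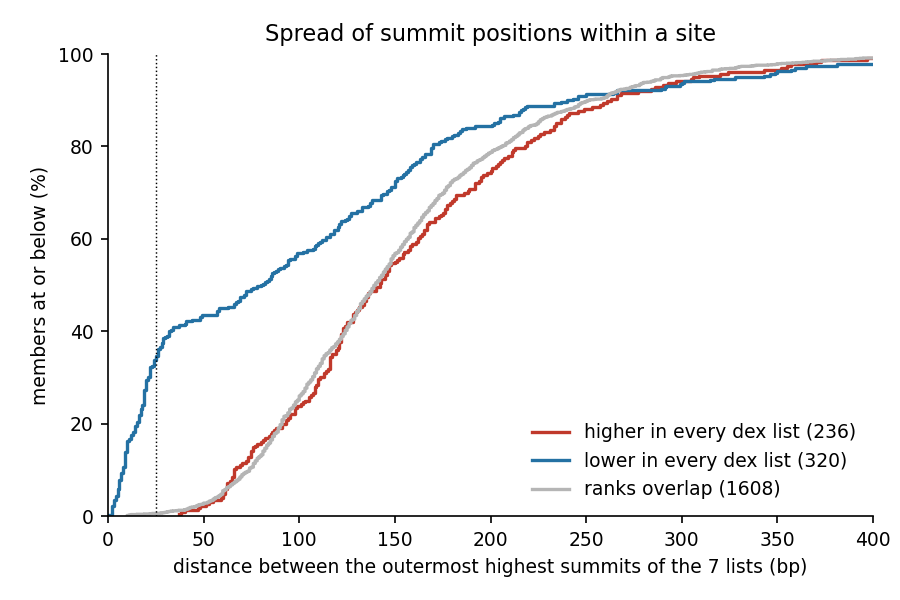
Cumulative share of members (y axis, percent) by the distance in bp between the outermost highest summits of the 7 lists (x axis, cut at 400 bp, dotted line at 25 bp), for members higher in every dex list, lower in every dex list, or with overlapping ranks. At 25 bp the lines stand at 0%, 34.7% and 0.56%.

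Stronger sites had closer summits among the members and among other sites alike. Over the 4 dex lists, the median spread of the members was 114 bp where the lowest dex percentile was under 20 and 58 bp where it was 80 or more. Other sites held by the 4 dex lists had 108 and 47 bp. At percentile 80 and above, 15.3% of the members and 15.8% of the other sites had their 4 dex summits within 25 bp. At percentiles 40 to 60 the shares were 9.4% of the members and 4.08% of the others, at 20 to 40 they were 4.19% and 2.39%, and over all 8842 sites 10.72% and 5.11%. Under percentile 20 the shares were 0.85% and 1.69%, and at 60 to 80 they were 7.88% and 6.57%. Close dex summits were more frequent among members over all 8842 sites and between percentiles 20 and 80, but not below or above. The members' median spread was the wider in each of these score ranges. Members made up 7.05% of the sites under percentile 20 and 51.8% from 80 upward, which enters the shares over all sites. Members that gained had median dex ranks of 83.0 to 85.5, against 56.2 to 72.9 for the 120 close-summit sites. With vehicle they ranked lower, at 34.74 to 42.53 against 92.86 to 96.35. None of them had all summits within 25 bp over the dex and vehicle lists together. That measure includes the vehicle summits and differs from the dex-only spread above. Whether rank accounts for the lack of close summits was not tested.

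Summit positions of a member agreed better between dex lists than in any pair with a vehicle list. The median distance of the highest summits was 31 to 33 bp in the 6 pairs of dex lists, with no gap between same-genotype and cross-genotype pairs. Between a dex and a vehicle list it was 36 to 42 bp without Klf15-/- vehicle 1 and 65.0 to 65.5 bp with that list. Between Klf15-/- vehicle 2 and WT vehicle it was 41 bp. From Klf15-/- vehicle 1 it was 68 bp to Klf15-/- vehicle 2 and 62 bp to WT vehicle. Vehicle lists were thus about as far from each other as from the dex lists. The median signed displacement over the members was at most 2 bp either way in any pair. Shifts in opposite directions at different sites cancel in this median. It therefore cannot show whether the summits of a member share a position. Pairs share libraries.

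The strongest members belonged in part to the close-summit class. The 5 with the highest lowest percentile, all at 99.86 or above in every list, had spreads of 23 bp (chr6:103599202-103599225), 16 bp (chr13:77578218-77578234), 9 bp (chr4:70039202-70039211), 90 bp (chr12:3109923-3110013) and 9 bp (chr14:86598889-86598898). The nearest other site of any list was 64, 134, 11.3, 0.72 and 487 kb away. Among the 216 members of the top 10% by mean dex rank, 105 (48.6%) were also in the top 10% by mean vehicle rank. Close-summit sites made up 35 of the dex top 10% and 90 of the vehicle top 10%. Of the dex top 10%, 94 had gained and 42 had lost, and 33 were in the lower 50% with vehicle. Of the vehicle top 10%, 137 had lost and 29 were in the lower 50% with dex. The ranks that chose each top 10% also define gain and loss. These counts are therefore partly built in and are descriptions.

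Gaining and losing members lay in different surroundings. The 2720 autosomal sites held by all 4 dex lists with no vehicle summit served as a map of ligand-dependent occupancy. No member is among them, but they come from the same lists as the ranks. The median distance to the nearest of these was 77.7 kb for members that gained, 354 kb for members that lost and 157 kb for members with overlapping ranks. Within 50 kb, 43.6% of gaining members had one, against 14.1% of losing members and 27.0% of all members. Ligand-dependent sites themselves had another one within 50 kb in 33.5% of cases, and all autosomal sites in 24.4%. The order did not come from the close-summit class alone: losing members outside it had a median of 323 kb and 16.3% within 50 kb. The medians without Klf15-/- vehicle 1 were 86.9 kb for gaining, 293 kb for losing and 142 kb for overlapping sites. The map and the gaining class were both chosen by dex over vehicle in the same lists. Their nearness is therefore a description and no independent support. Sites near each other are not independent, and no test was made.

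**Figure D4:**
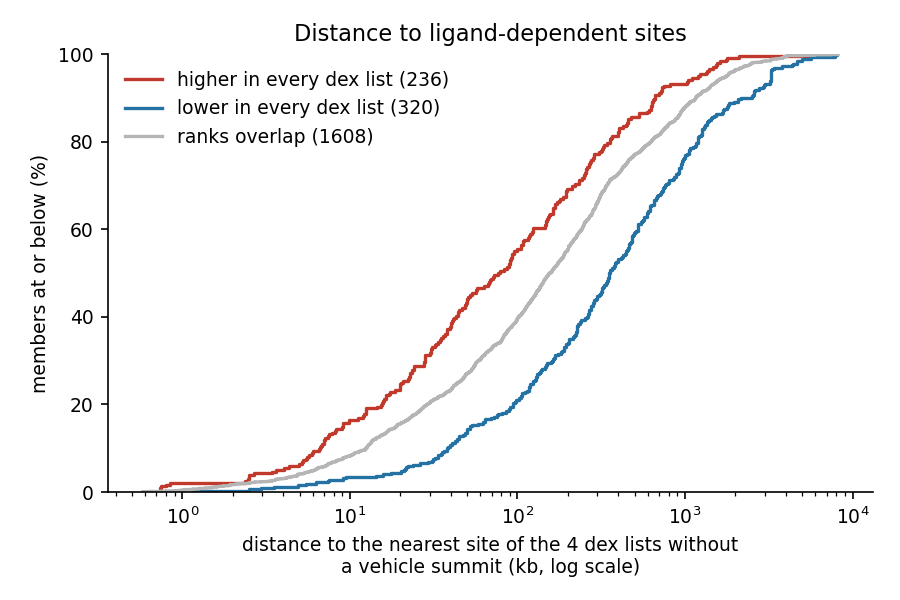
Cumulative share of members (y axis, percent) by distance in kb, on a log scale, to the nearest site held by the 4 dex lists without a vehicle summit (x axis). Members higher in every dex list are nearest (median 77.7 kb), members lower in every dex list farthest (median 354 kb), and those with overlapping ranks lie between (157 kb).

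Members also lay near each other. Another member was found within 10 kb of 14.7% of members, against 8.36% of the sites held by the 4 dex lists and some but not all vehicle lists, 6.58% of ligand-dependent sites and 6.97% of all autosomal sites. Ligand-dependent sites also lay near their own kind, with another one within 10 kb in 12.57% of cases, against 7.79% of all autosomal sites. All members had any other site within 10 kb in 65.02% of cases, and all autosomal sites in 55.84%. Any other site lay within 10 kb of 74.6% of gaining members, 46.3% of losing members and 22.5% of the close-summit class, for which the median distance was 37.1 kb against 5.71 kb over all members. The close-summit sites were thus isolated among the receptor sites.

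The dense stretches were of different kinds. Members lay in 1074 windows of 1 Mb, and 66 windows held at least 5. The most, 15 of 64 sites, were at 3 to 4 Mb of chromosome 9, and 10 of them lost rank and none gained. Their median ranks were 9.50 and 11.7 in Klf15-/- dex, 26.1 and 14.3 in WT dex, 44.6 and 68.8 in Klf15-/- vehicle and 42.0 in WT vehicle. Mouse chromosomes have the centromere at one end, and the assembled sequence starts at about 3 Mb. In the first 0.5 Mb from there, on 11 chromosomes, 38 of 283 sites were members (13.4%), of which 21 lost rank (55.3%) and 0 gained. There were 40 without Klf15-/- vehicle 1, with 25 lost and 1 gained.

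The other dense windows were mixed. At 125 to 126 Mb of chromosome 2, 11 of 48 sites were members, 3 gained and 0 lost. Median ranks there were 76.9 and 72.1 in Klf15-/- dex, 52.7 and 57.1 in WT dex, 26.1 and 40.2 in Klf15-/- vehicle and 45.2 in WT vehicle. At 129 to 130 Mb of chromosome 8, 10 of 69 sites were members, with 4 gained and 0 lost. At 28 to 29 Mb of chromosome 19, all 11 members had overlapping ranks. At 63 to 64 Mb of chromosome 13, 11 members included 1 that gained and 4 that lost, and at 16 to 17 Mb of chromosome 10 the 10 members included 1 that gained.

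Among chromosomes, members were most frequent on chromosome 18, with 107 of 1220 sites (8.77%, exact 95% interval 7.24 to 10.5%). They were least frequent on chromosome 7, with 56 of 1434 (3.91%, 2.96 to 5.04%). These intervals leave out the autosomal mean of 6.38%. The intervals cover counting error only, and the extremes were picked out of 19 chromosomes. On chromosome 7 the members' median rank was 35.8 and 34.8 in Klf15-/- dex, 43.1 and 40.6 in WT dex, 56.5 and 49.3 in Klf15-/- vehicle and 50.1 in WT vehicle, so the dex lists were below the vehicle lists in each genotype. Its median change per member was -13.1 rank points in Klf15-/- and 0.93 in WT.

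After dexamethasone the ranks of members differed between Klf15-/- and WT cells, about as often as those of all sites of the dex lists. Of the members, 564 (26.1%) ranked higher in both Klf15-/- dex lists than in both WT dex lists, and 654 (30.2%) ranked lower. Over all 8842 autosomal sites of the 4 dex lists members included, these shares were 25.9% and 27.3%. Without Klf15-/- vehicle 1, 914 of 3538 sites were higher and 967 lower. By at least 20 points, 135 members were higher and 119 lower, a step for which no share over all sites is given. On whole-list percentiles, where Klf15-/- lists are the longer, 857 were higher and 379 lower. With vehicle, 742 members (34.3%) ranked higher in both Klf15-/- lists than in the WT list and 720 (33.3%) lower, beside 34.1% and 32.8% of 2493 sites held by the 3 vehicle lists.

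The member most above WT, chr14:121533458-121533830, stood at percentile 96.0 and 94.4 in Klf15-/- dex, 12.4 and 2.80 in WT dex, 78.3 and 88.4 in Klf15-/- vehicle and 55.4 in WT vehicle. Next came chr8:8454121-8454390, with 98.2 and 96.6 in Klf15-/- dex, 61.5 and 65.4 in WT dex, 51.6 and 92.9 in Klf15-/- vehicle and 6.01 in WT vehicle. In both, the 2 Klf15-/- vehicle lists also ranked the site above the WT vehicle list, at 76.1 and 66.4 against 16.1 for the first and at 45.3 and 78.0 against 0.62 for the second. The other 3 were chr11:3053857-3054252, chr16:58352368-58352587 and chr2:134168411-134168626, and over the 5 sites percentiles were 94.4 to 98.5 in Klf15-/- dex and 2.80 to 68.0 in WT dex.

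The member most below WT was chr10:13408715-13408815, at percentile 73.3 and 70.4 in Klf15-/- dex, 94.0 and 97.5 in WT dex, 37.8 and 15.2 in Klf15-/- vehicle and 89.3 in WT vehicle. Its Klf15-/- values were below its WT values with either treatment. The same held for chr15:34679587-34679849, with 66.8 and 45.3 in Klf15-/- dex, 89.8 and 90.5 in WT dex, 26.2 and 50.5 in Klf15-/- vehicle and 93.4 in WT vehicle. The other 3 were chr13:26308663-26308856, chr2:117342029-117342172 and chr1:186278209-186278283, and over the 5 sites percentiles were 45.3 to 73.3 in Klf15-/- dex and 88.2 to 97.5 in WT dex.

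The genotype difference was uneven among chromosomes. On chromosome 10, 23 of 159 members (14.5%) ranked higher in both Klf15-/- dex lists and 77 (48.4%) lower. On chromosome 11, 39 of 96 (40.6%) ranked higher and 23 (24.0%) lower. Over all 8842 autosomal sites of the 4 dex lists the shares were 25.9% and 27.3%. Such shares were not worked out for all sites of a single chromosome. Whether the unevenness is particular to the members was therefore not tested. Median ranks on chromosome 10 were 43.5 and 50.9 in Klf15-/- dex and 61.4 and 61.7 in WT dex, and those on chromosome 11 were 52.3 and 55.9 in Klf15-/- dex and 39.9 and 44.3 in WT dex. With vehicle the direction on these 2 chromosomes was the same: the median Klf15-/- minus WT difference was -6.38 rank points on chromosome 10 and 6.05 on chromosome 11, and -5.91 and 3.25 with Klf15-/- vehicle 2 alone. On chromosome 7 the directions were opposite, with -4.17 after dex and 8.2 with vehicle, or 4.05 with Klf15-/- vehicle 2 alone. Over the 19 autosomes, both Klf15-/- dex medians lay below both WT dex medians on 8 chromosomes and above them on 7, so chromosomes 10 and 11 are the extremes of a mixed set.

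**Figure D5:**
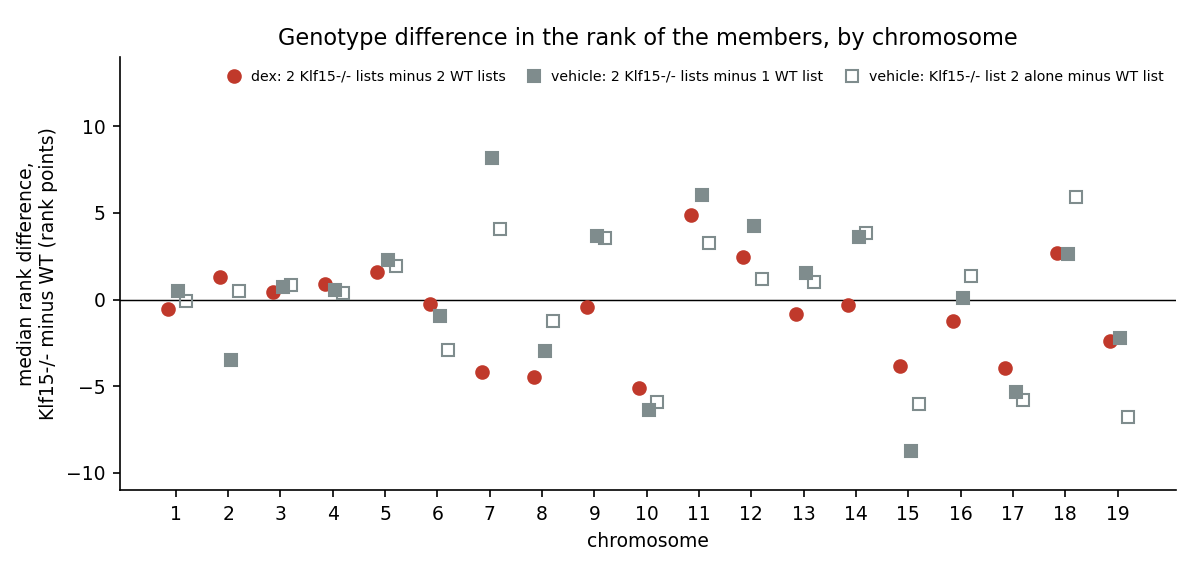
Median difference in rank among the members, Klf15-/- minus WT in rank points (y axis), for each autosome (x axis), with dex (circles), with vehicle (filled squares) and with vehicle using Klf15-/- vehicle 2 alone (open squares). Chromosomes 6, 8, 10, 15, 17 and 19 lie below 0 for every symbol, and chromosomes 3, 4, 5, 11, 12 and 18 lie above 0 for every symbol.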

How the data were processed

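Per the submitters' processing notes, CASAVA 1.4, Bowtie2 2 and SAMtools were used, with genome build mm9. Which program called peaks, against which control and at which cutoff is not given in sources used here. The authors deposited 1 list of 1 bp summits per library, each with a score of unstated scale. The score was used only as a rank within its list.

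Summits of all 7 lists were linked by single linkage at gaps of at most 200 bp. Where a list had several summits in a site, the highest counted. Percentiles are shares of a list's summits at or below a score, ties averaged. Ranks among members run from 0 to 100. A member was counted as higher or lower when the groups of lists did not overlap. Named sites were the largest rank gaps (10 gains, 10 losses, 5 each way between genotypes), the 5 with the highest lowest percentile, the members nearest the linkage limit, and the 1 Mb windows with at least 10 members. Members, lists and rules were chosen with earlier results of these data known. No statistical test was made. Intervals are exact binomial (95%) and cover counting error only. Linkage and ranking were tested on simulated data. A gene table and promoter sequences of another build (GRCm38) were not used. Software was scipy 1.17.1, pandas 2.3.3, numpy 2.4.6 and matplotlib 3.10.9 under Python 3.11.15.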

Additional observations from a re-analysis of the deposited data

Results flagged for a closer look

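On chromosome 16 the members' median rank moved in opposite directions in the genotypes, in every list. It changed by -4.64 rank points in Klf15-/- cells (2 dex against 2 vehicle lists) and by 2.8 in WT cells (2 dex lists against 1 vehicle list). The median change per member was -1.92 in Klf15-/- and -1.54 in WT, with no such contrast. The chromosome held 97 members, and the difference was not tested. Chromosomes and named sites were searched for such a pattern, and no other met it. No group had enough libraries to look for an outlying one.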

How the results depend on the processing

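Of 177 values recomputed under alternatives, 136 stayed within 1.5 times a count or 1 SD of a value, and 41 moved. A count taken singly cannot change sign, but the balance of higher to lower calls turned round under whole-list percentiles. Alternatives named here were planned unless said otherwise. There were 885 members with summits above the median score of their list; the counts were then 116 higher and 173 lower with dex, 261 higher and 253 lower within Klf15-/-, 218 higher and 279 lower in Klf15-/- against WT dex, and the WT changes of members chosen in Klf15-/- were 21.2 and -26.8. Fewer sites were tested there. Lists of equal length gave a median dex percentile of 76.9 and WT changes of 36.2 and -27.9. The mean score of a site gave a WT change of 26.4. Leaving out the close-summit members, chosen after seeing the data, gave -23.1. Whole-list percentiles, also chosen after seeing the data, gave 427 and 177 (dex), 1196 and 233 (Klf15-/-), 857 and 379 (genotype), where ranks among members gave 236 and 320, 566 and 575, and 564 and 654. Libraries left out in turn gave 2183 to 3538 members and median percentiles of 81.3 to 86.6 (dex) and 67.3 to 74.0 (vehicle). They gave 267 to 510 higher and 360 to 590 lower with dex, 571 to 1347 and 584 to 1524 within Klf15-/-, and 629 to 914 and 721 to 967 between genotypes. The highest of each count came without Klf15-/- vehicle 1, where 3538 sites were ranked. Without Klf15-/- vehicle 2, 384 were higher with dex, and 1078 and 997 were higher and lower within Klf15-/-. WT changes ran from 12.1 to 29.2 and from -24.1 to -15.4; the smallest came without Klf15-/- vehicle 2. Summit distances were 36.1 to 45.3 bp within and 42.3 to 52.0 bp across treatments. With the replicate block, same-numbered Klf15-/- pairs gave 701 higher and 702 lower. Deviations of same-numbered lists correlated at -0.038 to 0.014, so no pairing by number was seen in the ranks. Whether same-numbered libraries share material or handling was not tested. The WT vehicle group has 1 library and was never left out. Gene and sequence features were not run. Read depth is unknown, and no depth limit can be given.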
